A study of Mus musculus with 4 samples.

Results

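Gas5, Snhg1, Snhg6, Snhg8, Snhg12 and Snhg14 are long noncoding RNA genes that carry small nucleolar RNA (snoRNA) genes within their borders. They were taken by gene name from a table of 29300 genes measured by RNA-seq in the mouse hippocampus, and all 6 were found, each in 1 row. The mice were male C57BL/6 wild-type animals aged 7 to 8 months. The 2 PND mice, a model of perioperative neurocognitive disorder, had an open fracture of the tibia under isoflurane, and the 2 control mice had the same anesthesia without the fracture. All 4 mice also received the analgesic tramadol, and hippocampal RNA was taken on day 1 post-surgery, so the comparison is of the fracture on top of anesthesia and analgesia. Library totals ran from 15763432 to 18573386 counts, and levels are given as CPM, each count as a rate of its library's total after TMM scaling, which adjusts for differences in composition.

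A snoRNA host gene is transcribed as a long RNA from whose introns the snoRNAs are trimmed after splicing. The snoRNAs of the box C/D class guide ribose methylation of ribosomal RNA and those of the box H/ACA class guide pseudouridylation, whereas the spliced host RNA is exported and, for several hosts including Gas5, degraded by nonsense-mediated decay when it is translated. Many host RNAs begin with a run of pyrimidines, as ribosomal protein mRNAs do, which ties their translation to growth signals. Snhg14 stands apart. It is a very long transcript of the imprinted Prader-Willi and Angelman locus, made in neurons from the paternal chromosome, with tandem box C/D snoRNA genes, and its far end runs antisense to the ubiquitin ligase gene Ube3a, which it silences in cis.

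The 5 short hosts were 0.853 to 4.118 kb long in genome build mm10. Gas5 (growth arrest specific 5, ENSMUSG00000053332) lies on the plus strand of chromosome 1 at 161034422 to 161038539, and GENCODE M21 places 10 snoRNA genes at 9 positions inside it. Snhg1 (ENSMUSG00000108414) lies on the plus strand of chromosome 19 at 8723475 to 8726443 and holds 8 snoRNA genes. Snhg12 (ENSMUSG00000086290) lies on the plus strand of chromosome 4 at 132308678 to 132311024 and holds 5 at 4 positions. Snhg6 (ENSMUSG00000098234, minus strand of chromosome 1, 9941959 to 9944118) and Snhg8 (ENSMUSG00000104960, minus strand of chromosome 3, 123507552 to 123508404) hold 1 snoRNA gene each. Snhg14 (ENSMUSG00000100826) spans 667.8 kb on the minus strand of chromosome 7, from 59307924 to 59975759, and 208 snoRNA genes lie inside it. Retained introns matter for reading the counts of these genes, since 20 of the 25 annotated Gas5 transcripts and 14 of the 18 of Snhg1 keep an intron, so reads from unspliced RNA also count toward the gene.

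**Figure D1:**
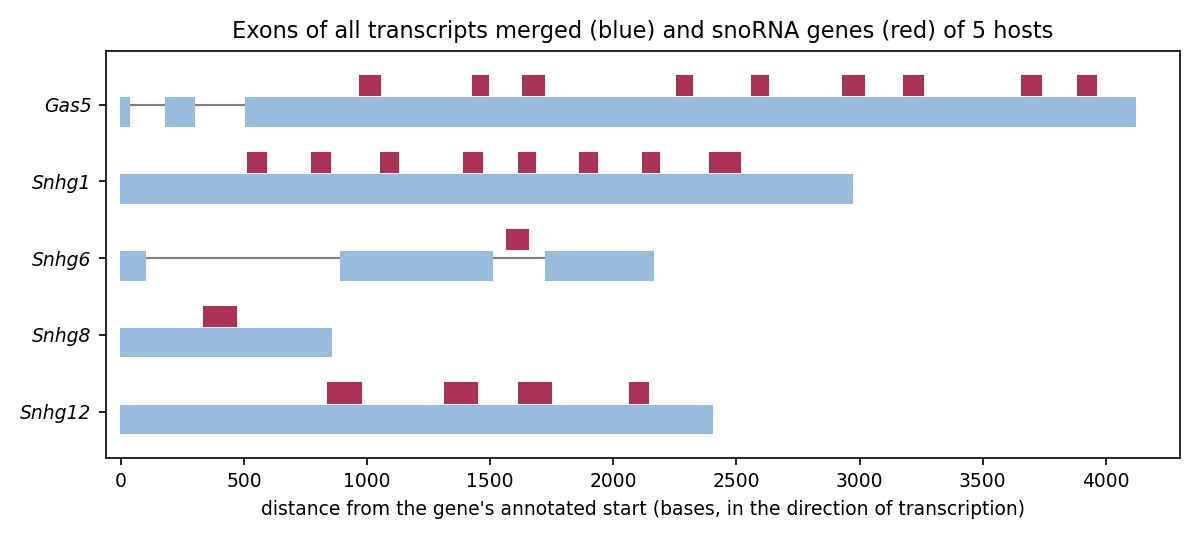
Map of the 5 short hosts drawn to scale, with the distance from the annotated start in bases on the horizontal axis, blue blocks for exons of all transcripts merged and red blocks for snoRNA genes. Gas5 has snoRNA genes at 9 positions, Snhg1 at 8, Snhg12 at 4, and Snhg6 and Snhg8 at 1 each, and in all but Snhg6 they lie within the merged exons, since some annotated transcripts run through them.

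The snoRNAs of Snhg12 are shown because Snhg12 was the host with a called difference, and Snord87 of Snhg6 because it was the one short-host snoRNA with a row in the table. Sequences are from the GENCODE M21 transcripts, and capitals mark box C and box D of the box C/D snoRNAs and the ACA trinucleotide near the end of the box H/ACA snoRNAs. No such trinucleotide was found at that place in the entry for Snora44. On chromosome 4, Snora16a lies at 132309464 to 132309600, Snora44 at 132309941 to 132310069, Snora61 at 132310240 to 132310369 and Snord99 at 132310691 to 132310764, all on the plus strand, and Snord87 lies on the minus strand of chromosome 1 at 9942463 to 9942549.
Snora16a: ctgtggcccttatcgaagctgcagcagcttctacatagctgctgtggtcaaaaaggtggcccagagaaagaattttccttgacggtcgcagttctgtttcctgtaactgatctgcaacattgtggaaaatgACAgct
Snora44: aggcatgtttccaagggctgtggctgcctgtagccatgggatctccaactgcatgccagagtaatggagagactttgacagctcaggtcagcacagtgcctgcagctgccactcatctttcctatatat
Snora61: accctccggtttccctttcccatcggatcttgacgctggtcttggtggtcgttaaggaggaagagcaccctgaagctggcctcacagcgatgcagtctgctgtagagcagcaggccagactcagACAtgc
Snord99: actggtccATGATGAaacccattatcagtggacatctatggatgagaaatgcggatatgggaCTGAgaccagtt
Snord87: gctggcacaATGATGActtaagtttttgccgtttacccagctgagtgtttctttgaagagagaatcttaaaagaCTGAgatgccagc

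The libraries did not measure these small RNAs well. RNA was captured by its poly(A) tail, which mature snoRNAs lack, and the 274 snoRNA and small Cajal body RNA genes of the table added up to 782 and 919 counts for the controls and 841 and 892 for the PND mice. Snord87 was at 1 count in control 1 and PND 1 and at 0 in control 2 and PND 2. The snoRNA genes of the other short hosts had no row, and all of them lie within the merged exons of their hosts. The part that this overlap played in the counting was not tested. Of the 208 snoRNA genes inside Snhg14, 15 had a row, which summed to 61 and 69 counts for the controls and 49 and 63 for the PND mice. The values that follow are therefore those of the host RNAs.

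Promoters were compared because many host RNAs begin with a pyrimidine run, and a TATA box was searched for as well. RefSeq start positions on GRCm38.p6 were used, and 45 bases before and 45 bases from the start are shown for the short hosts with an entry. Capitals mark TATA, searched on the transcribed strand 20 to 40 bases before the start, and a run of at least 5 letters that are C or T beginning within 10 bases of the start. The windows are chr1:161035121-161035210 (plus) for Gas5, chr19:8723442-8723531 (plus) for Snhg1, chr3:123508292-123508381 (minus) for Snhg8 and chr4:132308633-132308722 (plus) for Snhg12.
Gas5: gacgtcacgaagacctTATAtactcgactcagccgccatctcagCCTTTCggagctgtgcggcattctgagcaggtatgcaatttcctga
Snhg1: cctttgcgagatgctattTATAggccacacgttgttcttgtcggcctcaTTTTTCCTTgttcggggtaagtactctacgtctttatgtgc
Snhg8: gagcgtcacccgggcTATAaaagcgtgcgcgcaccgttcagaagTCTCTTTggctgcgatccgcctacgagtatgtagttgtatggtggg
Snhg12: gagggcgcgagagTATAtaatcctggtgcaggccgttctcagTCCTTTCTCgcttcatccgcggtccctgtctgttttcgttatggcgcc

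All 4 of these windows held both features, and so did 2.207% of the 32851 RefSeq promoters, of which 5.342% held the TATA and 37.98% the run. The run was 6 letters in Gas5, 9 in Snhg1, 7 in Snhg8 and 9 in Snhg12. A window at the other Gas5 start, chr1:161034556-161034645 (plus), and that of Snhg14, chr7:60450133-60450222 (minus), held neither, and the Snhg14 start lies outside the span the table gives for the gene. Among 18 windows of 16 other noncoding snoRNA host genes, 10 held the run and 2 the TATA.

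Levels can be set side by side between genes only per length, here in CPM per kb of the median annotated transcript over the 4 mice. Snhg14 was the highest, with a mean of 159.7 and a range of 133.6 to 188.8. Gas5 had a mean of 99.04 and a range of 87.13 to 111.4. The ranges of Snhg8 (13.92 to 27.77), Snhg12 (11.37 to 20.14) and Snhg6 (11.65 to 14.85) overlapped from each to the next, and Snhg1 was the lowest at 6.07 to 7.769. The order rests on the transcript models, since per kb of all exons merged Gas5 was the highest (14.58 to 18.64) and the range of Snhg14 (3.942 to 5.573) overlapped that of Snhg12 (4.334 to 7.676), with Snhg12 above Snhg14 in both control mice and below it in both PND mice.

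The comparison of PND with control mice asked which host RNAs differed after the fracture. Snhg12 fell, and it was the one member that was a differentially expressed gene (DEG), defined as an edgeR adjusted p under 0.05 together with a PND level 1.5 times the control level or more, or 0.67 times it or less. Gas5 was also lower, and Snhg14 higher, by amounts that passed the adjusted p but were smaller than that fold. Of all 17144 genes tested, 9.01% were DEGs, 2.25% as DEGs lower in PND mice, and 26.0% had an adjusted p under 0.05. Among the 6 hosts, 1 was a DEG and 3 had an adjusted p under 0.05, and with so few genes neither count is a result about the hosts as a group. The groups did not overlap in 4 of the 6 hosts, while 65.5% of all genes had groups that did not overlap. With 2 mice a group no exact permutation test of a single gene could go below p = 0.333, so the adjusted p-values come from the edgeR quasi-likelihood fit across all genes.

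Snhg12, host of 3 box H/ACA snoRNAs and of Snord99, was at 16.9 and 18.4 CPM in the control mice and 10.4 and 11.3 CPM in the PND mice. Both PND mice lay below both control mice, and the gap between the groups was larger than the spread within either. The mean went from 17.7 ± 1.09 to 10.8 ± 0.6003 CPM (SD, n = 2). On the log2 scale the difference was -0.70 (SE 0.13, 95% interval -1.02 to -0.39, edgeR adjusted p = 0.012). Its direction held in every alternative fit, with log2 fold changes from -0.84 to -0.64, but without control 2 the adjusted p was 0.053.

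Gas5, an abundant host whose spliced RNA is known as a target of nonsense-mediated decay, had 66.9 and 70.1 CPM in the control mice and 54.8 and 57.4 CPM in the PND mice. The groups did not overlap here either. The mean went from 68.5 ± 2.23 to 56.1 ± 1.80 CPM (SD, n = 2). This is a log2 difference of -0.29 (SE 0.07, 95% interval -0.46 to -0.11, edgeR adjusted p = 0.032), or 0.819 of the control level. The call was a narrow one, since the adjusted p lay between 0.058 and 0.13 with any 1 of the 4 mice left out and was 0.055 with scaling by library totals alone and 0.070 with no filter on low counts.

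Snhg8, host of Snora24, had 9.40 and 14.7 CPM in the control mice and 8.40 and 7.35 CPM in the PND mice. Both PND mice lay below both control mice, yet control 2 stood well above control 1, which was close to PND 1. The log2 fold change was -0.62 (SE 0.24, 95% interval -1.19 to -0.04) with an edgeR adjusted p of 0.11. It was -0.90 without control 1 (adjusted p = 0.020) and -0.26 without control 2 (adjusted p = 0.48). The controls also differed in choroid plexus markers, all 5 of which were detected in each group, with a summed level of 126 CPM in control 1 and 5387 CPM in control 2 against 2021 and 3434 CPM in the PND mice. The part of the choroid plexus in the Snhg8 values was not tested.

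Snhg1, whose snoRNA genes include Snord22, had 3.66 and 4.60 CPM in the control mice and 4.51 and 4.68 CPM in the PND mice. It was the least abundant host, with 63 to 84 counts a library, and the groups overlapped. The log2 fold change was 0.15 (SE 0.23, 95% interval -0.39 to 0.69, edgeR adjusted p = 0.66). A difference of the size seen for Snhg14 lies inside that interval.

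Snhg6, host of Snord87, had 8.30 and 6.51 CPM in the control mice and 7.46 and 7.76 CPM in the PND mice. Both PND mice lay between the controls. The log2 fold change was 0.04 (SE 0.19, 95% interval -0.42 to 0.50, edgeR adjusted p = 0.89). Its sign and that of Snhg1 depended on single control mice, with -0.13 for Snhg6 without control 2 and -0.0045 for Snhg1 without control 1.

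Snhg14 had 110 and 103 CPM in the control mice and 134 and 145 CPM in the PND mice. Both PND mice were above both control mice. The mean went from 106 ± 4.89 to 140 ± 8.24 CPM (SD, n = 2), and the log2 difference was 0.39 (SE 0.07, 95% interval 0.22 to 0.57, edgeR adjusted p = 0.012), or 1.31 times the control level. Without control 2 the log2 fold change was 0.34 with an adjusted p of 0.052, and the direction turned, to -0.39, when transcript length and GC content were modeled together. In bulk tissue, a change in the number of cells that make an RNA and a change in the RNA per cell cannot be told apart.

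**Figure D2:**
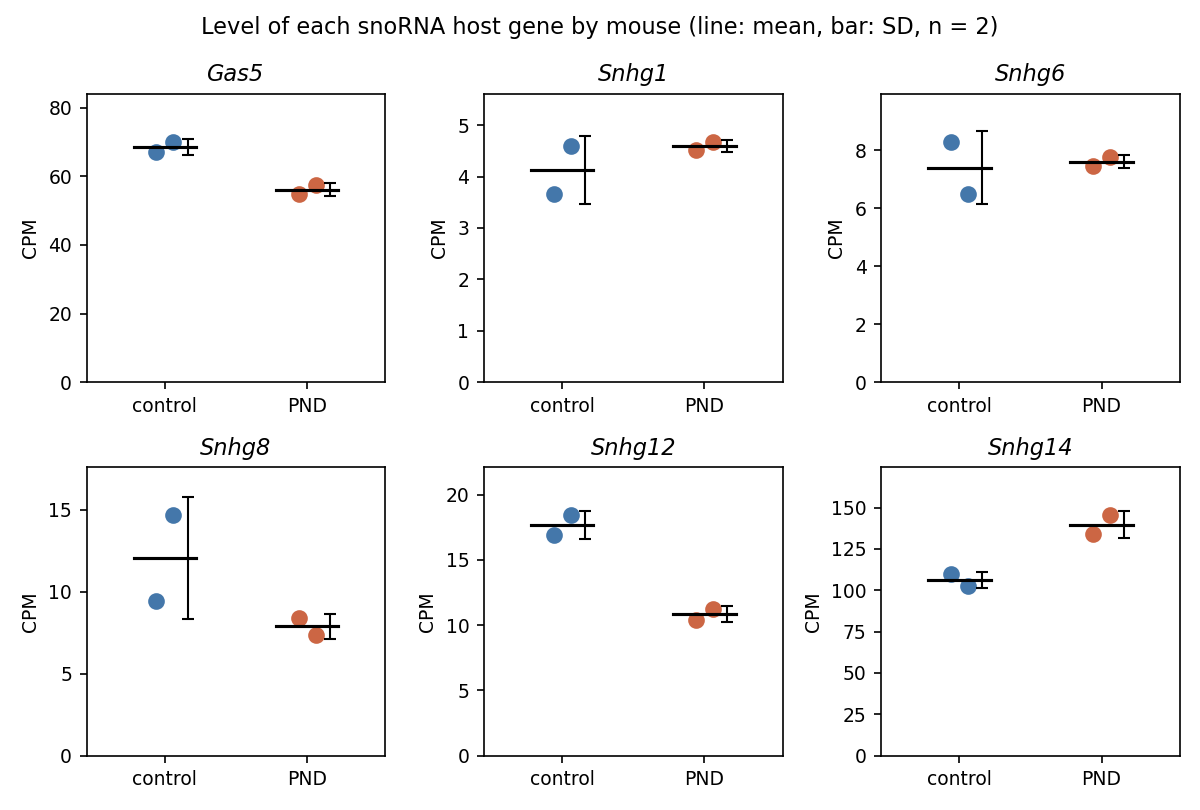
Level of each host in CPM (vertical axes from 0) in the 2 control and 2 PND mice, with points for mice, lines for means and bars for the SD. The PND mice lie below the control mice for Gas5, Snhg8 and Snhg12 and above them for Snhg14, and the groups overlap for Snhg1 and Snhg6.

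The fold changes of the whole table moved with GC content, and the 6 hosts lay below the median gene in it. Snhg8 and Snhg12 were only modestly below, at percentiles 36.2 and 39.2 of the genes tested. Transcript GC content was 38.1% for Snhg14, 40.9% for Snhg6, 41.0% for Snhg1, 42.5% for Gas5, 47.5% for Snhg8 and 48.1% for Snhg12, below the median of 49.97% over all genes tested. Genes of low GC content were on the whole higher in the PND libraries, as the plot of fold change against GC content shows. Whether that trend arose in the tissue or in the libraries cannot be told apart with this design, so the fit was repeated with offsets that take up how each library's counts vary with the length and GC content of transcripts.

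**Figure D3:**
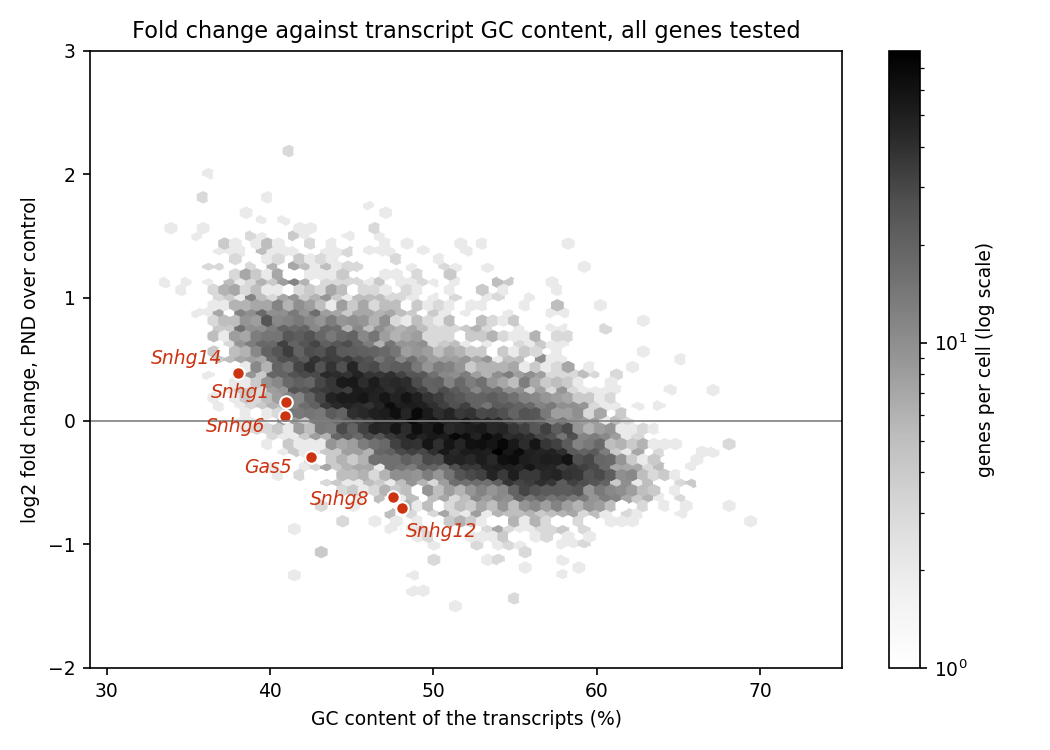
Log2 fold change of PND over control (vertical axis) against transcript GC content in percent (horizontal axis), with all genes tested as grey cells shaded by the number of genes on a log scale and the 6 hosts in red; 18 of 17120 genes lie outside the axes. The cloud falls from left to right, and the hosts lie toward its lower side.

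With the offsets, all 6 hosts had a negative log2 fold change, as did 54.69% of all genes, and the median of the hosts was -0.62 against -0.03 over all genes. Snhg12 was at -0.82 (SE 0.13, adjusted p = 0.043) and Gas5 at -0.73 (SE 0.08, adjusted p = 0.031), and both were then lower DEGs, as were 0.362% of genes in this fit. Snhg14 turned from 0.39 to -0.39 (SE 0.06, adjusted p = 0.044). Its GC content was at percentile 1.64 of the genes tested, near the edge of the fitted range. The offsets moved its log2 fold change by 0.787, the most of the 6 hosts, and the SE does not count the error of the offsets. In all, 3 of the 6 hosts were lower at an adjusted p under 0.05 in this fit, where 1.03% of the 17120 genes with a GC value were. With so few genes, this count too is not a result about the hosts as a group. Of the other noncoding snoRNA hosts, 0 were lower and 1 was higher in this fit, where 271 of all genes passed in either direction. Snhg8 was at -0.77 (adjusted p = 0.14), Snhg6 at -0.51 (adjusted p = 0.16) and Snhg1 at -0.39 (adjusted p = 0.38), none of which passed.

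The size for Gas5 rested on which transcripts gave its length and GC content, which were changed together. Without retained-intron models, its GC content was 48.4% and its log2 fold change with the offsets -0.41 (adjusted p = 0.057), and 2 hosts, Snhg12 and Snhg14, were then lower at an adjusted p under 0.05, against 0.905% of genes. This alternative was added after the data had been seen. Snhg12, Gas5 and Snhg8 were lower in every fit, whereas Snhg14 was higher in every fit without the offsets and lower in every fit with them.

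**Figure D4:**
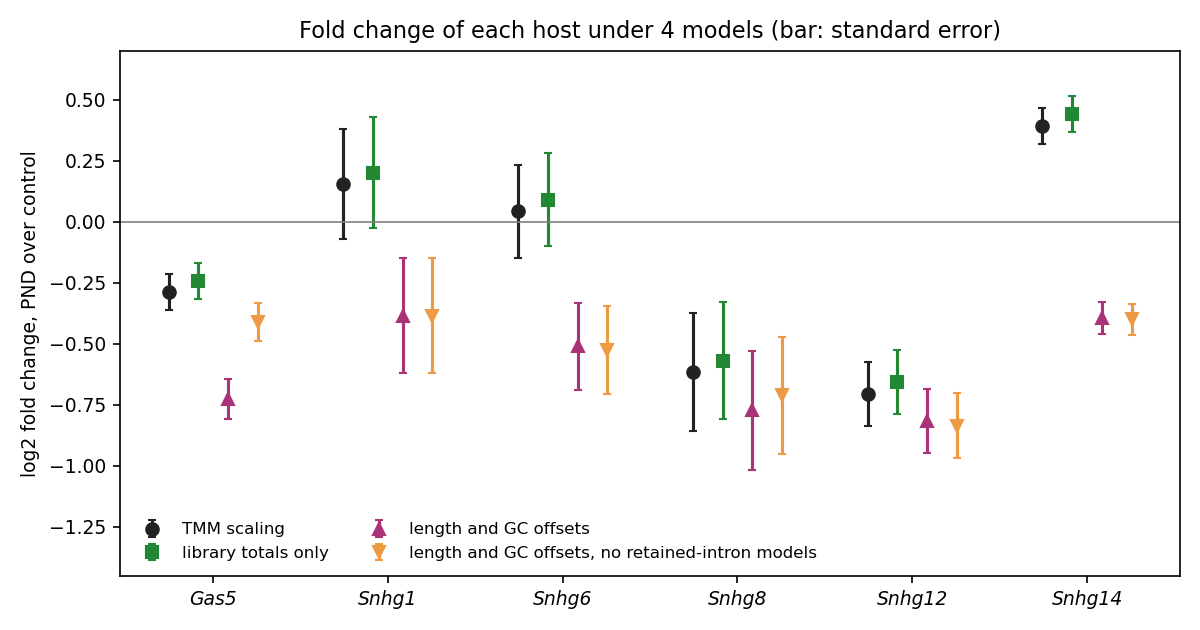
Log2 fold change of PND over control for each host (vertical axis) under 4 models, with bars for the standard error. Snhg8, Snhg12 and Gas5 are below 0 under all 4, whereas Snhg1, Snhg6 and Snhg14 are above 0 under TMM scaling or library totals and below 0 with the offsets.

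The 5 genes that overlap the hosts or start beside them included 3 higher DEGs, where 6.75% of all genes were higher DEGs, and none of the 3 had an adjusted p under 0.05 with the offsets. Ube3a has exons that cover 1803 bases, or 6.91%, of the Snhg14 exons on the opposite strand. It had 43.2 and 38.1 CPM in the control mice and 84.5 and 90.7 CPM in the PND mice, a log2 fold change of 1.11 (SE 0.09, edgeR adjusted p = 0.0042), or 0.33 with the offsets (adjusted p = 0.077). Ube3a and Snhg14 were thus both higher in the PND mice in the fit without offsets. Gm38393, whose exons share 27 bases with Snhg14 on the same strand, had 4.18 and 3.78 CPM in the control mice and 13.4 and 18.3 CPM in the PND mice, a DEG at 1.99 (adjusted p = 0.0045) that was at 1.05 with the offsets (adjusted p = 0.051). The use of strand in counting is not given in the sources used here, so reads in the shared exons of Ube3a and Snhg14 cannot be told apart.

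Zbtb37, a zinc finger gene on the opposite strand whose start is 427 bases from that of Gas5, had 19.0 and 17.2 CPM in the control mice and 30.0 and 27.5 CPM in the PND mice. It was a higher DEG at a log2 fold change of 0.67 (edgeR adjusted p = 0.0085), while Gas5 was lower, and with the offsets it was at 0.28 (adjusted p = 0.23). Slc3a2, the heavy chain of amino acid transporters, starts 106 bases from Snhg1 on the opposite strand and was at -0.20 (adjusted p = 0.13). Mcmdc2 overlaps 127 bases of Snhg6 exons, 11.08% of them, on the opposite strand, and was at 0.68 with 2.35 to 4.95 CPM (adjusted p = 0.12).

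Other noncoding snoRNA hosts held a DEG in each direction. Of 18 listed, 13 were in the table and 12 were tested, 1 was a higher DEG and 1 a lower one (6.75% and 2.25% of all genes were), and their median log2 fold change was 0.15 against 0.01 over all genes, or -0.13 with the offsets. Snhg11, an abundant host in the hippocampus, had 1674 and 1632 CPM in the control mice and 2342 and 2697 CPM in the PND mice and rose by a log2 fold change of 0.61 (edgeR adjusted p = 0.0055). Zfas1, which holds box C/D snoRNAs, had 14.9 and 20.1 CPM in the control mice and 11.7 and 10.8 CPM in the PND mice and was lower at -0.64 (adjusted p = 0.041). With the offsets Snhg11 was at 0.52 (adjusted p = 0.041) and Zfas1 at -0.72 (adjusted p = 0.085).

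Protein-coding genes that host snoRNAs, most of them ribosomal protein and translation factor genes, had 13 of 37 tested lower and 3 higher at an adjusted p under 0.05, against 12.8% and 13.1% of all genes. Their median was -0.15, or -0.18 with the offsets. In the fit with the offsets 6 were lower and 0 higher, where 1.03% of all genes were lower. The DEGs among them were Rack1, a ribosomal scaffold protein, which fell from 192 and 203 CPM to 132 and 127 CPM (-0.61, edgeR adjusted p = 0.0045), and Ncl, the nucleolar protein nucleolin, which rose from 145 and 143 CPM to 233 and 234 CPM (0.70, adjusted p = 0.0042). Rack1 remained lower with the offsets at -0.61 (adjusted p = 0.031), while Ncl was at 0.35 (adjusted p = 0.052).

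The machinery around the hosts was mixed, and the counts by adjusted p stand beside 13.1% of all genes higher and 12.8% lower. Of 19 snoRNP proteins and assembly factors tested, 3 were higher and 3 lower at an adjusted p under 0.05, with a median of 0.15, or 0.0033 with the offsets. In the fit with the offsets 1 was higher (Nolc1, named after its values were seen, at 0.47, adjusted p = 0.041) and 0 lower. Of all 17120 genes in that fit 271 passed, 177 of them lower. The 1 DEG of this list without the offsets was Nop58, a core protein of box C/D particles, while 6.75% of all genes were higher DEGs. Nop58 was at 26.3 and 26.7 CPM in the control mice and 42.5 and 41.8 CPM in the PND mice (0.67, edgeR adjusted p = 0.0049). Of 23 nonsense-mediated decay factors, 5 were higher and 3 lower, with a median of 0.09, or -0.02 with the offsets. Upf3b, which links the exon junction to the decay factors, went from 14.7 and 12.4 CPM to 33.0 and 35.0 CPM (1.32, adjusted p = 0.0043), and Pnrc2, a decapping adaptor, was at 0.64 (adjusted p = 0.0072). With the offsets Upf3b was at 0.89 (adjusted p = 0.035), and Nop58 and Pnrc2 were at 0.21 each (adjusted p = 0.24 and 0.33). The 5 stress mRNAs that are known decay targets held 0 DEGs and 0 genes with an adjusted p under 0.05, with Atf4 at -0.08 and Ddit3 at 0.08.

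Around Snhg14, 5 genes of the Prader-Willi and Angelman locus were tested. Ube3a was the 1 DEG, while 6.75% of all genes were higher DEGs. At an adjusted p under 0.05, 12.8% of all genes were lower. Of the locus genes, 2 were lower at that level without passing the fold, and they were named after their values were seen. These were Snrpn, upstream on the same transcription unit, at -0.41 (edgeR adjusted p = 0.0072), and Ndn at -0.34 (adjusted p = 0.037). Snhg14 and Snrpn thus had opposite signs in the fit without offsets and the same sign with them, where Snrpn was at -0.69 (adjusted p = 0.031). Among 5 nuclear-retained long noncoding RNAs, 2 were higher DEGs, a class that held 6.75% of all genes, and Miat, named after its values were seen, was lower at -0.30 (adjusted p = 0.014) without passing the fold. The DEGs were Kcnq1ot1, the antisense RNA of another imprinted cluster, at 1.17 (adjusted p = 0.0084) and Malat1, an abundant RNA of nuclear speckles, at 0.67 (adjusted p = 0.037). With the offsets they were at 0.53 (adjusted p = 0.13) and 0.22 (adjusted p = 0.45).

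**Figure D5:**
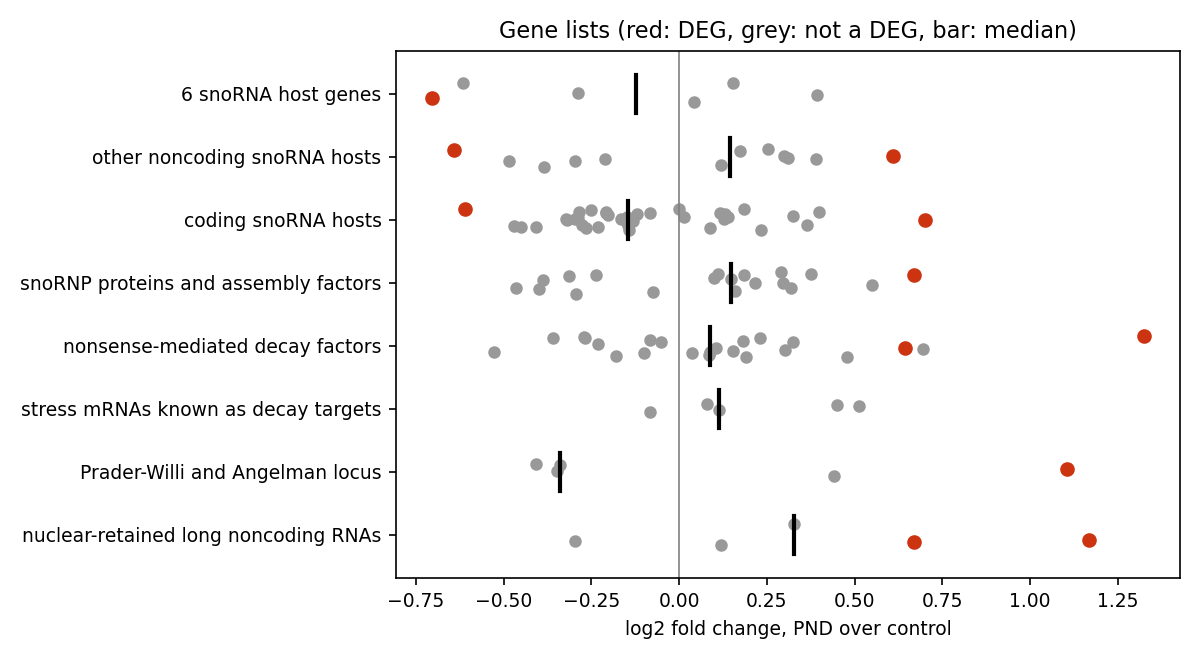
Log2 fold change of PND over control (horizontal axis) for the 6 hosts and 7 gene lists, with a point for each tested gene, red for DEGs, and a black bar for the median. The medians run from -0.34 for the Prader-Willi and Angelman locus to 0.33 for the nuclear-retained RNAs, and every list except the stress mRNAs holds at least 1 DEG.

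The profile of each host over the 4 libraries was also compared with the 15511 other genes with a mean of at least 1 CPM, by the Euclidean distance of centred log2 CPM. Over 4 libraries such likeness is easily met, as 508 genes lay within 0.1 of Gas5 and 258 within 0.1 of Snhg14. The nearest were Fibp and Ep400 for Gas5 (0.0045 and 0.012), Rnf168 and Actr2 for Snhg14 (0.011 and 0.016), and Slc26a1 and Hs6st3 for Snhg12 (0.021 and 0.044). Snhg1 was nearest to Ccdc189 and Prps2 (0.022 and 0.035) and Snhg6 to Gm26721 and Lrmp (0.037 and 0.041). Snhg8 had 3 genes within 0.1, led by Cbln1 (0.048) and Phpt1 (0.092).

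All 9 markers of hippocampal neurons were detected in every mouse, with a summed level of 8094 and 7791 CPM in the control mice and 7106 and 6817 CPM in the PND mice. For this list and those that follow, 13.1% of all genes were higher and 12.8% lower by adjusted p, and 6.75% were higher DEGs and 2.25% lower DEGs. Of the neuron markers, 1 was higher and 3 were lower by adjusted p. The DEGs among them were Wfs1 (-0.70) and Fibcd1 (-0.64), both lower, at -0.45 and -0.36 with the offsets (adjusted p = 0.0996 and 0.067), while Neurod6, named after its values were seen, was higher at 0.53 (edgeR adjusted p = 0.029) without passing the fold, and at 0.065 with the offsets (adjusted p = 0.83). Oligodendrocyte markers summed to 5330, 4572, 5067 and 3276 CPM in control 1, control 2, PND 1 and PND 2, with 0 of 5 DEGs. Astrocyte markers summed to 2836 to 3073 CPM in the control mice and 3359 to 3520 CPM in the PND mice, and by adjusted p 3 of 5 were higher and 1 was lower, of which Aqp4 was a DEG (0.73, or 0.59 with the offsets, adjusted p = 0.052). The lower one, Aldh1l1, named after its values were seen, was at -0.49 (edgeR adjusted p = 0.025). Microglia markers summed to 188 to 199 and 187 to 189 CPM, also with 1 higher DEG, P2ry12 (0.84, or 0.18 with the offsets, adjusted p = 0.36), while the other 4 had log2 fold changes below 0 that did not pass the adjusted p. Endothelial markers summed to 143 and 142 CPM in the control mice and 154 and 191 CPM in the PND mice, with 0 DEGs and 1 of 4 higher by adjusted p (Flt1, named after its values were seen, at 0.41, edgeR adjusted p = 0.024). Thalamus (103 to 125 CPM) and striatum (33.3 to 39.2 CPM) markers held 0 DEGs and 0 genes with an adjusted p under 0.05. Red blood cell markers summed to at most 11.2 CPM with 0 DEGs, and neutrophil markers to at most 14.8 CPM with 1 lower DEG of 4 tested, Ltf (-1.63, or -1.61 with the offsets, adjusted p = 0.10). The part of these cell types in the host values was not tested.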

How the data were processed

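The authors extracted hippocampal RNA from 2 control and 2 PND mice, captured it on oligo(dT) beads, primed it with random primers and deposited a table of raw read counts per gene mapped to mm10. The submitters' processing notes list HISAT2 2.1.0, Bowtie2 2.2.3, TopHat2 and HTSeq 0.6.0 without their roles, and the use of strand is not given in the sources used here. The deposited table also holds the authors' comparison, namely a mean signal, a fold change ratio, its log2 and p-values, and none of these columns were used. Nothing states that the mice were prepared separately, so p-values measure the spread between these samples. Replicate libraries were not duplicates of each other (chi-square per degree of freedom 12.3 in control and 7.77 in PND mice).

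Counts were analysed with edgeR 4.0.16 in R 4.3.3 by the quasi-likelihood F test, with TMM scaling, filterByExpr at a minimum count of 10 and Benjamini-Hochberg adjustment over 17144 genes. A DEG had an adjusted p under 0.05 and a level 1.5 times that of control mice or more, or 0.67 times it or less. Length and GC offsets were smooths from mgcv 1.9.3 with a basis size of 8. On simulated counts for the comparison of PND with control mice, with 200 changed genes among 16820 tested, edgeR recovered 199 and called 4 unchanged genes. With a GC trend added, it called 398 unchanged genes without the offsets (16804 genes tested) and 3 with them (16780 tested). The changed genes were drawn from those above the median level, with changes larger than those of the hosts. These counts therefore do not say how well changes of the hosts' size are found. The added trend was linear in GC content and the same in both PND libraries, a form that the offsets can take up.

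Of the table's identifiers, 29238 occur in GENCODE M21, which gave transcript models, snoRNA genes and overlaps, with coordinates that match for 93.2%. Start windows came from RefSeq on GRCm38.p6, which had no entry for Snhg6. The genes named were the 6 hosts, up to 4 DEGs per list among genes averaging 1 CPM or more (or the 2 most abundant genes where there was no DEG), genes overlapping a host's exons or starting within 1 kb of it on the other strand, and the 2 nearest profiles of each host. The hosts and the lists were chosen with earlier results of these data known. Meg3, Snrpn and Nop56 stand in more than 1 list, and Ube3a is also a gene that overlaps a host. Alternatives were DESeq2's size factors, library totals only, no filter, DESeq2 1.42.0, the offsets, the replicate number as a block, an adjusted p alone and leaving out each mouse.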

Additional observations from a re-analysis of the deposited data

How the results depend on the processing

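Under DESeq2's size factors, the DESeq2 test and the replicate block, no host changed its direction or its side of the threshold. Library totals only gave -0.24 for Gas5 (adjusted p = 0.055) and 224 DEGs lower, with 1377 higher, against 386 and 1158 with TMM. No filter on low counts gave -0.30 for Gas5 (adjusted p = 0.070). With length and GC offsets the values were -0.39 for Snhg1, -0.51 for Snhg6 and -0.39 for Snhg14, with 2 hosts as DEGs, and 66 genes higher and 62 lower in all. Without retained-intron transcripts, an alternative chosen after seeing the data, they were -0.39, -0.52 and -0.40, with Gas5 at -0.41, and 69 genes higher and 53 lower. With the replicate block and the offsets together they were -0.38, -0.51 and -0.39, with 2 hosts as DEGs, and 183 genes higher and 123 lower. An adjusted p alone called 3 hosts.

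With 1 mouse left out at a time, where the lone mouse is assumed to vary like the other group, log2 fold changes ran from -0.33 to -0.26 for Gas5, -0.0045 to 0.33 for Snhg1, -0.13 to 0.22 for Snhg6, -0.90 to -0.26 for Snhg8, -0.77 to -0.64 for Snhg12 and 0.34 to 0.44 for Snhg14. The number of hosts that were DEGs ran from 0 (without control 2) to 2 (without control 1), with 754 (without control 2) to 1312 genes higher and 254 (without control 2) to 614 (without PND 1) lower in all. The causes of these changes were not tested.

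The sources used here do not say whether the replicate numbers pair the mice. Deviations from the group means of same-numbered mice had a correlation of 0.245 over 15512 genes, and the replicate block alone gave 1289 genes higher and 427 lower and the same 1 host. Snhg1 had the fewest counts of the hosts, 63 to 84 a library, and whether counting depth or the spread between mice set the width of its interval was not tested.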
